A study of Saccharomyces cerevisiae Vin13 with 18 samples.

Results

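On the arrays of a wine fermentation study, 499 of 5449 measured Saccharomyces cerevisiae genes carried only a systematic name, and 118 of these 499 (23.6%) are described here. They were chosen as the unnamed open reading frames (ORFs) whose mean log2 signal on day 2 was at least 0.8 higher in 300 L tanks than in 80 ml vials and lay above 4.4 in the tanks. The day 2 values therefore chose the members. Those values are given as a description with no test, and tests are made on days 5 and 10 only.

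All arrays measured VIN13, a commercial wine yeast, fermenting Chardonnay must at 20 °C after inoculation to an OD600 of 0.1. Each group was one vessel type on one day: microaerobic vials of 80 ml or commercial tanks of 300 L, sampled on day 2, 5 or 10. The labels give 3 biological replicates per group, hence 6 groups and 18 arrays. They do not say whether one vessel was sampled on several days. RNA came from all cells of a sample, so a change in the share of cells that express an ORF and a change in RNA per cell cannot be told apart.

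A yeast ORF keeps a systematic name, which spells out its chromosome, arm, position and strand, until a function or phenotype earns it a standard one. Some unnamed ORFs belong to protein families that can be recognised from sequence, such as membrane transporters and oxidoreductases. Others are very short, or lie beside the telomeres, where gene families and repeats occur in many copies.

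Values are log2 of the deposited probe set intensity, and a difference is always the tank mean minus the vial mean. A gene was called where limma's Benjamini-Hochberg adjusted p, over all 5449 genes, was under 0.05. Between 5357 and 5387 genes per array lay above a background intensity of 21.1, set from fission yeast probe sets on the same array. Replicate arrays correlated across genes at 0.974 or more in day 10 tanks, where replicate 2 stood apart, and at 0.990 or more in the other groups. Log2 values of the 3′ minus the 5′ control probe sets, a sign of RNA or cDNA length, averaged 1.00 ± 0.03, 1.46 ± 0.07 and 1.78 ± 0.07 (SD, n = 3) in vials on days 2, 5 and 10. In tanks they averaged 0.83 ± 0.06, 1.15 ± 0.09 and 1.36 ± 0.09. Their part in any result was not tested.

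On day 2 the 118 ORFs had a median log2 difference of 1.25, within a range of 0.81 to 2.78. Of all 5449 genes, 17.9% reached the 0.8 limit. In each of the 118 the 3 tank arrays lay above the 3 vial arrays, as they did in 40.4% of all genes, and nothing is read from this since the values chose the ORFs. Among genes with a standard symbol, 855 of 4950 (17.3%) passed the same limits. Just inside the limit were YIR018C-A at 0.81, YER187W at 0.81 and YGR210C at 0.82. Just outside it were YBL005W-A, YOR161C-C and YKL107W, each at 0.79.

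Over the 118 ORFs, the median of the group means was 9.00, 9.29 and 9.03 in vials on days 2, 5 and 10. In tanks it was 10.30, 9.73 and 9.44. The tanks of day 2 held the highest of the 6 group means for 86 of the 118, against 31.1% of all genes. The rule favours that group and keeps day 2 vials from being highest, so nothing is read from this count. For 11 ORFs the highest mean was in day 5 tanks, for 11 in day 10 tanks, for 8 in day 10 vials and for 2 in day 5 vials. No ORF was at background on every day 2 vial array.

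**Figure D1:**
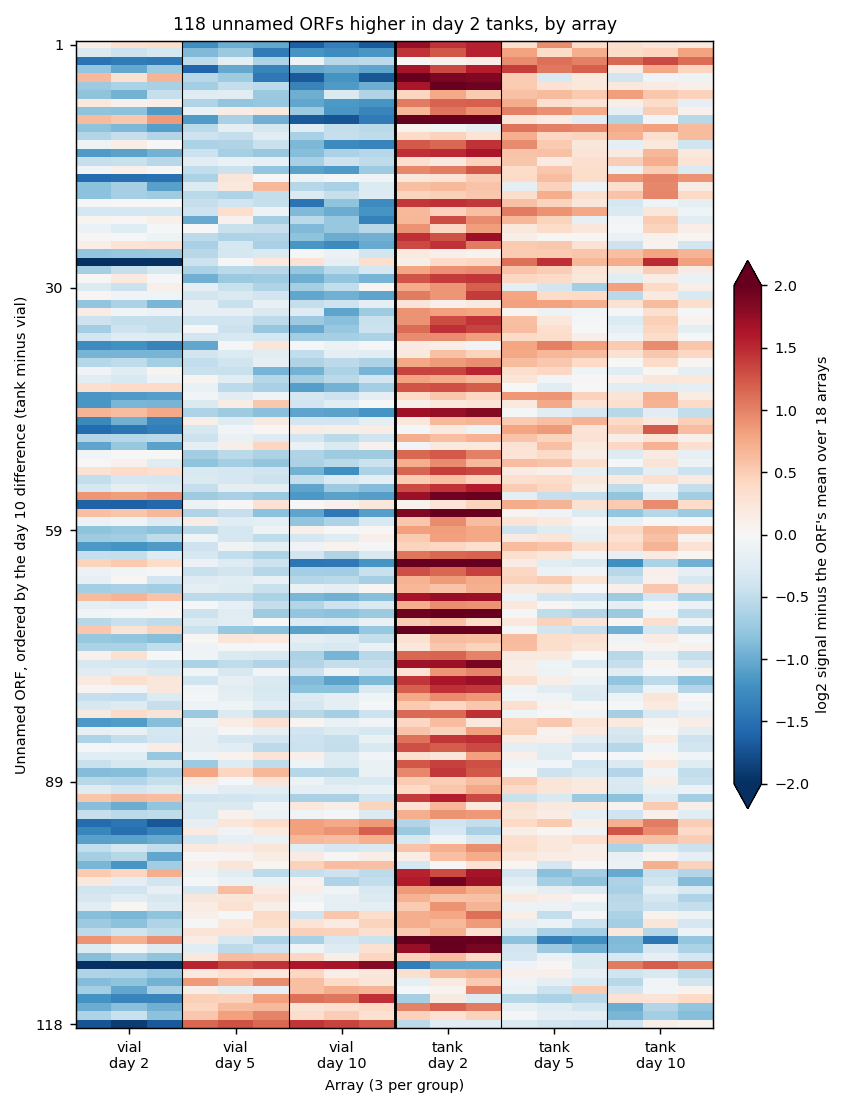
Each row is 1 of the 118 ORFs and each column 1 of the 18 arrays, coloured by the log2 signal minus the ORF's mean over all arrays, with rows ordered by the day 10 difference. The day 2 tank arrays are red in nearly all rows, as chosen, while the vial arrays of days 5 and 10 are blue at the top and red at the bottom, where the ORFs were lower in tanks on day 10.

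YNR014W, an ORF with no established role, had the largest day 2 difference, 2.78. Its log2 signal was 8.22, 8.42 and 8.16 on the day 2 vial arrays and 10.86, 11.12 and 11.16 on the day 2 tank arrays. On day 5 it was 10.31, 10.70 and 10.94 in vials and 11.84, 12.20 and 11.39 in tanks. The day 5 groups did not overlap, and tanks were higher by 1.16 (SE 0.22, adjusted p = 0.00028). On day 10 the vial arrays were at 11.03, 10.57 and 11.08 and the tank arrays at 11.48, 12.23 and 11.55. They too stood apart, by 0.86 (SE 0.22, adjusted p = 0.00344). In both vessel types its level on days 5 and 10 was thus above that of day 2.

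YFR018C and YPL264C had day 2 tank levels that no later tank array reached. YFR018C, also without an established role, measured 9.07, 9.13 and 9.26 in day 2 vials and 11.66, 11.69 and 11.83 in day 2 tanks. Its tank arrays on day 5 were at 10.76, 10.79 and 10.46 and its vial arrays at 9.77, 9.53 and 9.45. The groups were apart, with a log2 difference of 1.09 on day 5 (SE 0.13, adjusted p = 4.14e-06) and 1.04 on day 10 (SE 0.13, adjusted p = 6.85e-06). YPL264C, a predicted membrane transporter of the drug and metabolite family, measured 9.28, 9.37 and 9.35 in day 2 vials and 11.63, 12.03 and 11.94 in day 2 tanks. On day 10 its vial arrays were at 8.67, 8.87 and 9.02 and its tank arrays at 10.20, 10.17 and 10.09. Every tank array lay more than 1 log2 unit above every vial array there, and the difference was 1.30 (SE 0.12, adjusted p = 1.15e-07), against 0.90 on day 5 (SE 0.12, adjusted p = 6.58e-06).

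YNR071C is predicted to encode an aldose 1-epimerase, an enzyme that interconverts the anomers of a sugar. Its log2 signal was 9.90, 9.65 and 9.97 in day 2 vials and 12.32, 12.00 and 12.24 in day 2 tanks. On day 5 the vial arrays were at 9.08, 9.65 and 9.33 and the tank arrays at 12.05, 11.73 and 11.87. That day 5 difference, 2.53 (SE 0.16, adjusted p = 2.6e-09), was the largest of the 118 ORFs. By day 10 the tank arrays were at 10.84, 11.45 and 11.11 and the vial arrays at 9.64, 9.69 and 9.63. The groups were still apart, by 1.48 (SE 0.16, adjusted p = 9.28e-07). The second predicted aldose 1-epimerase among the members, YHR210C, was 1.46 higher in tanks on day 2 but was called lower on the later days. It was lower by -0.42 on day 5 (SE 0.17, adjusted p = 0.0453), a value close to the threshold. On day 10 it was lower by -0.55 (SE 0.17, adjusted p = 0.0118), with overlapping arrays. Its calls under the alternatives are not given.

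Several leading ORFs were high in day 2 tanks alone. YHL042W, of a repeated subtelomeric family (DUP), was at 9.79, 9.76 and 9.71 in day 2 vials and at 11.81, 11.83 and 12.02 in day 2 tanks. All its other arrays lay between 9.48 and 10.25, and the difference was 0.51 on day 5 (SE 0.12, adjusted p = 0.00169) and 0.27 on day 10, where it was not called (adjusted p = 0.067). There were 3 alternatives that called it on day 10, leaving out replicate 1 of the day 10 tanks (0.38), array weights (0.19) and removal of a trend on coding length (0.47). YMR262W, of the TatD nuclease family, was at 8.91, 8.94 and 9.00 in day 2 vials and at 10.90, 11.00 and 11.19 in day 2 tanks. No later array of it exceeded 8.93, and it was not called on day 5 (0.08, adjusted p = 0.669) or on day 10 (0.34, adjusted p = 0.0842), though it was called on day 10 without replicate 1 of the day 10 tanks (0.48), with array weights (0.27) and with repeated quantile normalization (0.40). The same description holds for YOL107W, which has no established role. It was at 8.41, 8.66 and 8.42 in day 2 vials and at 10.42, 10.67 and 10.58 in day 2 tanks. Its later arrays did not exceed 8.97, with a difference of -0.30 on day 5 (not called, adjusted p = 0.133, but called at -0.45 without replicate 1 of the day 5 tanks) and of -0.59 on day 10 (SE 0.17, adjusted p = 0.00613).

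YOR292C and YMR247W-A were higher in tanks on day 2 and lower on day 5. YOR292C, of the MPV17 and PMP22 family of small membrane proteins, was at 9.35, 9.49 and 9.37 in day 2 vials and at 11.32, 11.51 and 11.37 in day 2 tanks. On day 5 the vial arrays were at 10.77, 10.96 and 10.98 and the tank arrays at 10.16, 10.08 and 9.97. The tank arrays were now the lower ones, by -0.83 on day 5 (SE 0.10, adjusted p = 4.57e-06) and by -1.12 on day 10 (SE 0.10, adjusted p = 1.77e-07). YMR247W-A, a short ORF of 144 nt, was at 5.75, 5.77 and 5.96 in day 2 vials and at 7.58, 8.03 and 7.86 in day 2 tanks. On day 5 it was at 7.40, 7.05 and 7.28 in vials and at 6.61, 6.21 and 6.32 in tanks. The day 5 difference was -0.87 (SE 0.16, adjusted p = 0.000228), while the day 10 arrays overlapped, with a difference of 0.03 (adjusted p = 0.871).

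YLL053C, YOR381W-A and YPR015C complete the 12 ORFs with the largest day 2 differences. YLL053C is part of the aquaporin gene AQY2, a water channel that is split in the reference strain. It was at 7.86, 7.85 and 7.90 in day 2 vials and at 9.54, 9.74 and 9.91 in day 2 tanks, and 0.52 higher in tanks on both later days (SE 0.15, adjusted p = 0.00752 and 0.00822). Without replicate 2 of the day 10 tanks the day 10 difference was 0.35 and not called. The other part, under the name AQY2, differed by 1.56 on day 2, 0.73 on day 5 (adjusted p = 0.00163) and 0.51 on day 10 (adjusted p = 0.0179). YPR015C, a predicted zinc finger protein, was at 7.56, 7.59 and 7.61 in day 2 vials and at 9.33, 9.38 and 9.59 in day 2 tanks. Its difference was 0.59 on day 5 (SE 0.15, adjusted p = 0.00333) and 1.00 on day 10 (SE 0.15, adjusted p = 4.32e-05). YOR381W-A, of 168 nt, was near background: 4.86, 4.47 and 4.28 in day 2 vials and 6.23, 6.58 and 6.37 in day 2 tanks. All later arrays lay between 3.77 and 4.74. Its day 5 call, at -0.48 (adjusted p = 0.042), thus rested on signals around the background, which 2 of the 3 day 5 tank arrays did not exceed, and was lost under 7 alternatives, leaving out any of 5 arrays among them.

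**Figure D2:**
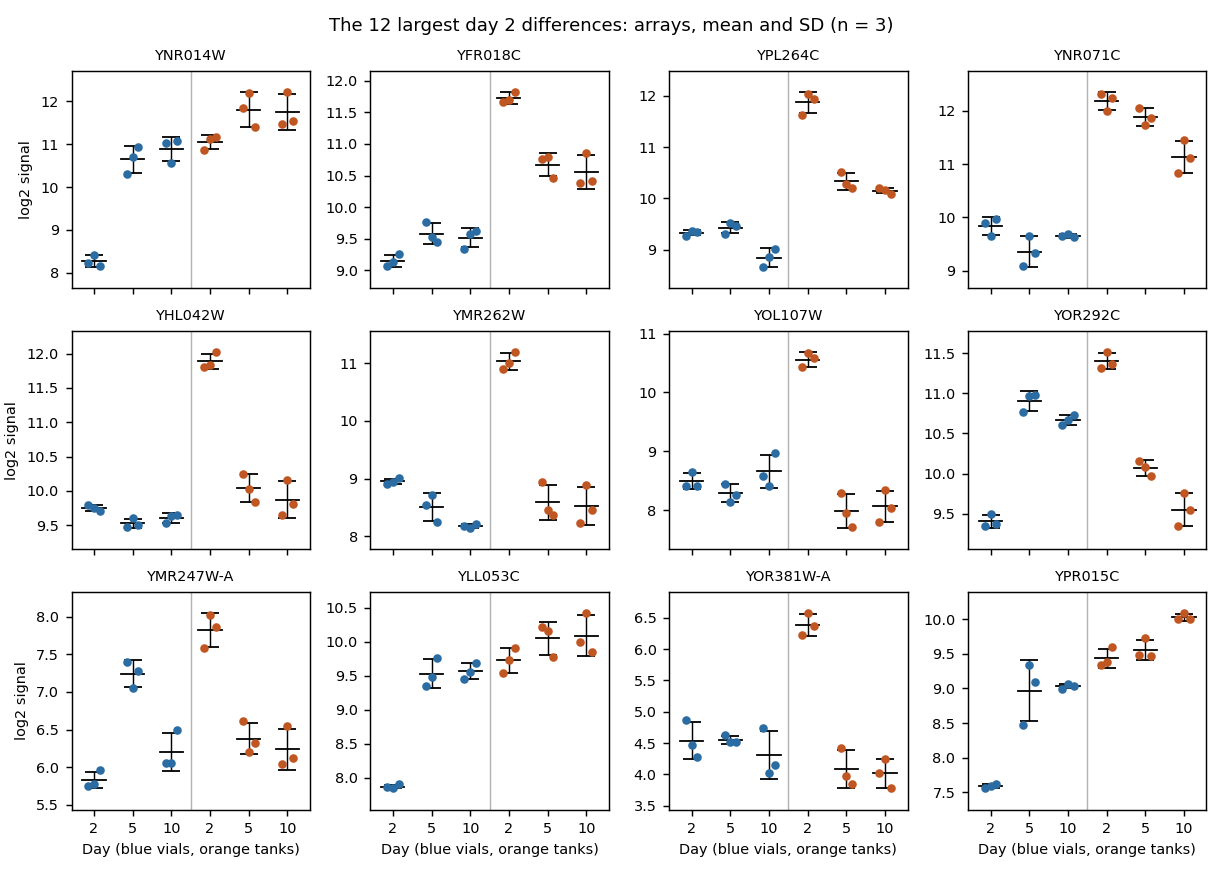
Log2 signal of the 12 ORFs with the largest day 2 differences, by day, with points for arrays, a bar for the mean and whiskers for the SD (n = 3), vials in blue and tanks in orange. YHL042W, YMR262W, YOL107W and YOR381W-A are high in the day 2 tanks and near their day 2 vial level afterwards. In vials YNR014W, YLL053C, YPR015C, YOR292C, YMR247W-A and, less so, YFR018C are higher on days 5 and 10 than on day 2.

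On day 5, 73 of the 118 ORFs were called higher in tanks, 13 lower and 32 were not called. Over all genes, 33.1% were called higher and 28.8% lower. The members' median log2 difference was 0.43, within -1.56 to 2.53, and that of all genes was 0.02. On day 10, 72 were called higher, 15 lower and 31 were not called, against 32.3% higher and 26.4% lower of all genes. The median was 0.50, within -1.40 to 1.82, and 0.03 over all genes.

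Genes with a standard symbol that passed the same day 2 limits are set beside these counts. Of those 855, 545 (63.7%) were called higher and 63 (7.37%) lower on day 5, with a median of 0.43. On day 10, 508 (59.4%) were higher and 65 (7.60%) lower, with a median of 0.40. The 381 other unnamed ORFs, chosen by failing the limits, were called higher in 93 (24.4%) and lower in 118 (31.0%) cases on day 5, with a median of -0.10. On day 10 they were higher in 106 (27.8%) and lower in 116 (30.4%) cases, with a median of -0.06. No test was made between these sets.

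Counted over both later days, 63 ORFs were called higher on day 5 and on day 10, which is 86.3% of the 73 and 87.5% of the 72. Another 11 were called lower on both days, 84.6% of the 13 and 73.3% of the 15. No ORF was called in opposite directions, and 19 were called on neither day. A difference of at least 0.8 was seen again in 33 ORFs on day 5 and in 30 on day 10, with 24 in both, while 9.03% of all genes reached it on day 5 and 9.03% on day 10. The difference exceeded that of day 2 in 8 ORFs on day 5 and in 9 on day 10. Called changes of at least 2-fold were counted in 17 ORFs that were higher and 3 that were lower on day 5, against 5.05% and 8.81% of all genes. On day 10 there were 16 and 3, against 5.36% and 6.81%.

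**Figure D3:**
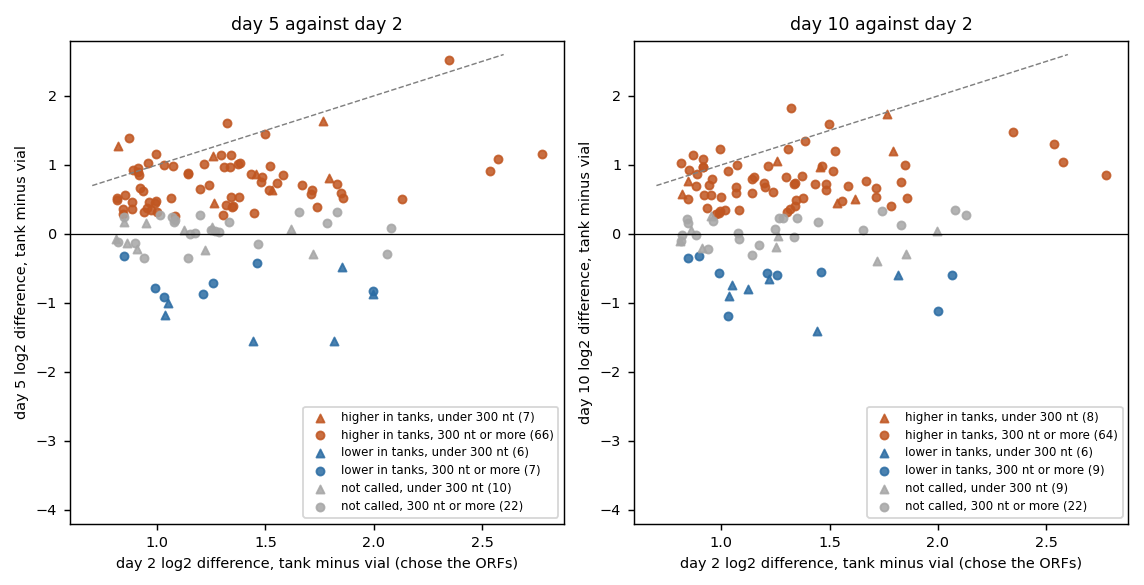
Each point is 1 of the 118 ORFs, with its day 2 log2 difference (tank minus vial) on the horizontal axis and its day 5 (left) or day 10 (right) difference on the vertical axis. Triangles are ORFs under 300 nt, colours give limma's call and the dashed line marks equal differences. Most points lie above 0 and below the dashed line, with 13 called ORFs below 0 on day 5 and 15 on day 10.

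Transporters made up the largest recognisable membrane group. Of 12 ORFs of transporter families, 10 were called higher and none lower in tanks on day 5, and 9 higher and none lower on day 10, with medians of 0.63 on both days. Of all genes 33.1% were higher on day 5 and 32.3% on day 10, and of the 118 members 61.9% and 61.0%. Called lower were 28.8% and 26.4% of all genes, and 11.0% and 12.7% of the members. The classes were drawn up with these values known. YOL075C, a predicted ABC transporter, was at 10.21, 10.44 and 10.47 in day 5 vials and at 11.59, 11.56 and 11.41 in day 5 tanks. The arrays were apart by more than 0.9, and the difference was 1.15 (SE 0.11, adjusted p = 2.61e-07). It was 0.83 on day 10 (SE 0.11, adjusted p = 8.8e-06). YNL095C, of an auxin efflux carrier-like family, differed by 0.98 on day 5 (adjusted p = 9.16e-05) and 1.00 on day 10 (adjusted p = 8.27e-05). Its named paralog ECM3 was 1.38 higher in tanks on day 2, 0.43 on day 5 (adjusted p = 0.00144) and 0.75 on day 10 (adjusted p = 8.76e-06).

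The other transporters called on both days were YLR046C, a relative of the lipid exporter RSB1, at 0.97 and 0.73, YJR124C of the major facilitator superfamily at 0.82 and 0.72, and YPR003C, a predicted sulfate transporter, at 0.64 and 0.91. YDL199C, a predicted sugar transporter, was at 0.63 and 0.54, and YML018C at 0.44 and 0.31. YDR338C, of the multidrug and toxin extrusion family, was called on day 5 at 0.40 (adjusted p = 0.00744) but not on day 10 at 0.24 (adjusted p = 0.099). The day 5 call was lost without replicate 1 of the day 5 tanks (0.30) and with the length trend removed (0.28). Neither YBR287W, a second auxin efflux carrier-like ORF, nor YKR104W, part of the split ABC transporter gene NFT1, was called on either later day. YBR287W differed by 0.02 and -0.16, and YKR104W by 0.18 and -0.04.

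Of 18 ORFs of enzyme families, 15 were called higher and 1 lower on day 5, and 12 higher and 1 lower on day 10. These are 83.3% and 66.7% called higher, against 33.1% and 32.3% of all genes and 61.9% and 61.0% of all members. The day 10 share is thus close to that of all members. The medians were 0.39 and 0.43, and YHR210C was the one called lower. Oxidoreductases stood among the larger differences. YPL113C, a predicted 2-hydroxyacid dehydrogenase, was at 5.95, 5.80 and 5.08 in day 5 vials and at 7.01, 6.21 and 6.72 in day 5 tanks. On day 10 its vial arrays were at 4.83, 5.31 and 4.79 and its tank arrays at 6.14, 6.43 and 6.40. Tank arrays were above all vial arrays on both days, by 1.03 on day 5 (SE 0.22, adjusted p = 0.0007) and 1.35 on day 10 (SE 0.22, adjusted p = 7.44e-05). YCR102C, similar to quinone oxidoreductases, was 1.03 higher on day 5 (adjusted p = 1.32e-06) and 0.79 on day 10 (adjusted p = 2.15e-05).

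YDR541C and YGL039W belong to the aldehyde reductase family of GRE2 and ARI1. YDR541C was at 10.45, 11.20 and 10.75 in day 5 vials and at 11.90, 11.75 and 11.63 in day 5 tanks. It was 0.96 higher in tanks on day 5 (SE 0.16, adjusted p = 7.41e-05) and 0.97 on day 10 (SE 0.16, adjusted p = 7.66e-05). YGL039W was 0.36 higher on day 5 (adjusted p = 0.0178), with overlapping arrays, and 0.70 higher on day 10 (adjusted p = 0.000142). On the later days their named relatives had smaller values: GRE2 differed by 0.24 on day 5 (adjusted p = 0.0611) and -0.26 on day 10 (adjusted p = 0.0474), and ARI1 by 0.18 (adjusted p = 0.0886) and 0.40 (adjusted p = 0.00128). The difference between relatives was not tested. YPR172W, similar to pyridoxamine phosphate oxidases, was 1.00 and 0.91 higher on days 5 and 10, and YHR033W, similar to the glutamate kinase PRO1, 0.75 and 0.64 higher.

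Smaller differences were seen in the remaining enzymes. YJL068C, an S-formylglutathione hydrolase of formaldehyde detoxification, was 0.42 and 0.36 higher on days 5 and 10, both called. The lipid droplet hydrolase YPR147C was at 0.25 and 0.34, the magnesium-dependent phosphatase YER134C at 0.35 and 0.29, and the 2-aminoadipate transaminase YER152C at 0.39 and 0.49. YNL320W, a hydrolase of the BEM46 family, was called on day 5 at 0.38 (adjusted p = 0.0468) and not on day 10 at 0.33. YBR284W, similar to AMP deaminase, was called at 0.31 on day 5 (adjusted p = 0.0406) and not at 0.17 on day 10. The day 5 arrays of the vessel types overlapped in YNL320W, YBR284W and YER152C (adjusted p = 0.0386), and those of YER152C on day 10 too. YOL057W, a dipeptidyl peptidase, was called on neither day, at 0.02 and 0.23. YIL165C, part of the split nitrilase gene NIT1, was 0.28 higher on day 5 (adjusted p = 0.0333) and 0.21 on day 10, where it was not called (adjusted p = 0.102). The part named NIT1 was 0.62 higher on day 5 (adjusted p = 0.000464) and 0.64 on day 10 (adjusted p = 0.00043).

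All 6 ORFs classed with protein sorting and small membrane proteins were called on both later days, 4 higher and 2 lower. Over all genes 33.1% were called higher and 28.8% lower on day 5, and 32.3% and 26.4% on day 10. Of the 118 members, 61.9% and 61.0% were called higher on these days. YNR065C and YNR066C resemble VPS10, the receptor that sorts vacuolar enzymes. YNR066C was at 5.70, 5.53 and 5.56 in day 5 vials and at 7.05, 6.64 and 6.58 in day 5 tanks, apart by 1.16 (SE 0.13, adjusted p = 1.76e-06). It was 1.23 higher on day 10 (SE 0.13, adjusted p = 9.61e-07). YNR065C was 0.32 higher on day 5 (adjusted p = 0.0411), a call lost under 8 alternatives, with values down to 0.16 without replicate 3 of the day 5 vials. It was 0.71 higher on day 10 (adjusted p = 0.000229). YHL017W, a relative of PTM1, was at 0.53 and 0.52, and YNR048W, of the CDC50 family, at 0.37 and 0.57. The SEC14 relative YKL091C, of a family that transfers phospholipids, was lower by -0.33 on day 5 (adjusted p = 0.0124) and -0.35 on day 10 (adjusted p = 0.00875), and YOR292C was the other ORF of this class below the vials.

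**Figure D4:**
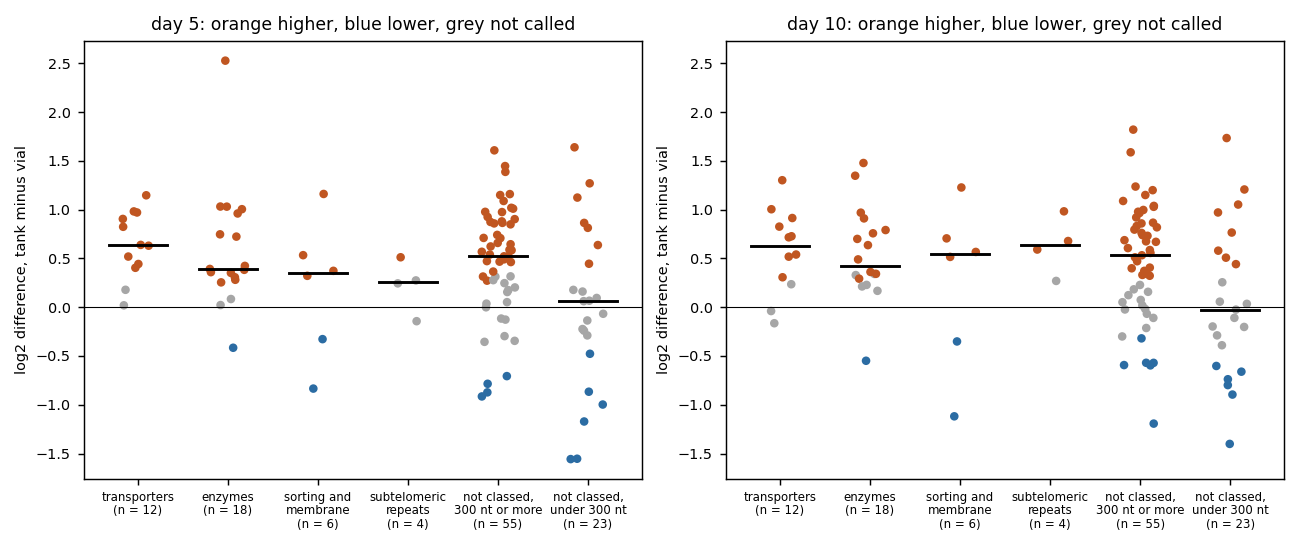
Log2 differences (tank minus vial) on day 5 (left) and day 10 (right), with 1 point per ORF by role class, orange where called higher, blue where called lower and grey where not called, and a bar at the class median. The 12 transporters have no blue point on either day, while the 23 ORFs under 300 nt, none of which was classed by role, spread from -1.56 to 1.64 on day 5.

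Among ORFs not placed in a role class, the differences reached 1.64 on day 5 and 1.82 on day 10, against 2.53 and 1.48 among the enzymes. YJR154W was at 5.75, 6.01 and 5.96 in day 5 vials and at 7.29, 7.90 and 7.34 in day 5 tanks. On day 10 it was at 5.34, 5.61 and 5.30 in vials and at 7.30, 7.23 and 7.18 in tanks. Its difference of 1.61 on day 5 (SE 0.14, adjusted p = 1.15e-07) and 1.82 on day 10 (SE 0.14, adjusted p = 2.88e-08) exceeded the 1.32 of day 2. The day 10 value was the largest of the 118. YBR238C, the paralog of the mitochondrial RNA factor RMD9, was at 9.81, 10.13 and 9.69 in day 5 vials and at 11.25, 11.40 and 11.32 in day 5 tanks. It was 1.45 higher on day 5 (SE 0.12, adjusted p = 6.67e-08) and 1.59 on day 10 (SE 0.12, adjusted p = 2.32e-08). RMD9 itself was 0.49 higher on day 5 (adjusted p = 7.06e-05) and 0.16 on day 10 (adjusted p = 0.0924).

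YER158C is the paralog of AFR1, which acts in the mating response. It was at 12.21, 12.56 and 12.40 in day 5 vials and at 13.84, 13.76 and 13.73 in day 5 tanks. Tanks were higher by 1.39 on day 5 (SE 0.11, adjusted p = 5.45e-08) and by 1.15 on day 10 (SE 0.11, adjusted p = 4.26e-07). AFR1 had a day 2 difference of only 0.07 but was 1.50 higher on day 5 (adjusted p = 7.58e-09) and 1.59 on day 10 (adjusted p = 3.27e-09). YJR115W and its paralog ECM13 had opposite signs on day 2, 1.08 and -5.37. On the later days YJR115W was at 0.20 and -0.07 and ECM13 at 0.23 and 0.59, none of them called. With the trend on coding length removed, YJR115W was called on day 5 at 0.46, and with array weights on day 10 at -0.25.

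Of the 13 members called lower in tanks on day 5, 6 were under 300 nt, as were 6 of the 15 on day 10. Such ORFs made up 23 of the 118. Most of those called lower, 10 and 12, were not placed in a role class. Of all genes, 28.8% and 26.4% were called lower. YHR140W, a predicted membrane protein, was at 13.10, 13.37 and 13.55 in day 5 vials and at 12.53, 12.37 and 12.37 in day 5 tanks. It was lower by -0.91 on day 5 (SE 0.12, adjusted p = 7.65e-06) and by -1.19 on day 10 (SE 0.12, adjusted p = 4.58e-07), after a day 2 difference of 1.03. YNR021W, another predicted membrane protein, was at 10.31, 9.84 and 9.54 in day 5 vials and at 9.34, 8.79 and 8.94 in day 5 tanks. All 6 were below its day 2 vial arrays of 11.06, 10.86 and 11.07. Its difference was -0.87 on day 5 (SE 0.19, adjusted p = 0.000875) and -0.57 on day 10 (SE 0.19, adjusted p = 0.017). The day 10 call was lost without replicate 2 of the day 10 tanks (-0.37) or of the day 10 vials (-0.50).

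Short ORFs moved both ways. Of the 118 members, 23 (19.5%) had under 300 nt of coding sequence, as did 26.5% of the other unnamed ORFs and 4.31% of all genes. On day 5, 7 of the 23 were called higher and 6 lower (median 0.06), and on day 10, 8 higher and 6 lower (median -0.02). The 95 longer members gave 66 higher and 7 lower on day 5 (median 0.49) and 64 and 9 on day 10 (median 0.54). Of all genes of 300 nt or more, 34.1% were higher and 27.8% lower on day 5, and 33.1% and 25.4% on day 10. Over all 235 genes under 300 nt, 27 were higher and 118 lower on day 5 (median -0.34), and 35 and 113 on day 10 (median -0.35). The 3′ minus 5′ control values averaged lower in tanks than in vials on each day. Single controls did not all follow, SPT15 being higher in tanks on days 5 and 10. The part of transcript length was not tested.

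YGR121W-A, of 216 nt, had the largest difference below 0. Its log2 signal was 6.71, 6.54 and 6.76 in day 2 vials and 7.92, 8.22 and 8.21 in day 2 tanks. On day 5 it was at 9.58, 9.71 and 9.59 in vials and at 8.15, 8.04 and 8.02 in tanks. The tank means of days 2 and 5 were 8.12 and 8.07, while the vial means were 6.67 and 9.63. The scale difference was -1.56 on day 5 (SE 0.12, adjusted p = 3.61e-08) and -1.40 on day 10 (SE 0.12, adjusted p = 1.05e-07).

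YJL047C-A, of 135 nt, was at 7.47, 7.48 and 7.59 in day 2 vials and at 9.11, 9.44 and 9.45 in day 2 tanks. Its day 5 arrays were at 12.02, 11.85 and 11.94 in vials and at 10.41, 10.53 and 10.20 in tanks. On day 10 they were at 12.11, 12.15 and 12.32 in vials and at 11.53, 11.70 and 11.55 in tanks. Both vessel types were thus far above their day 2 levels, with the tanks behind the vials by -1.55 on day 5 (SE 0.11, adjusted p = 9.71e-09) and by -0.60 on day 10 (SE 0.11, adjusted p = 0.000201). With a trend on coding length removed, the day 10 difference was -0.27 and not called.

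YGR146C-A, of 162 nt, and YBR196C-A, of 150 nt, had day 5 vial arrays above all their tank arrays of that day. YGR146C-A was at 8.19, 8.17 and 8.53 in day 5 vials and at 7.14, 7.08 and 7.16 in day 5 tanks, lower by -1.17 (SE 0.16, adjusted p = 1.45e-05) and on day 10 by -0.90 (SE 0.16, adjusted p = 0.000206). YBR196C-A was at 8.63, 8.43 and 8.72 in day 5 vials and at 7.70, 7.59 and 7.50 in day 5 tanks, lower by -1.0 (SE 0.16, adjusted p = 4.93e-05) and on day 10 by -0.74 (SE 0.16, adjusted p = 0.000801). YDR034C-A, of 177 nt, overlapped on day 5, with 8.02, 7.70 and 7.74 in vials and 7.77, 7.46 and 8.42 in tanks. On day 10 it was lower in tanks by -0.80 (SE 0.24, adjusted p = 0.0101), or by -0.49 and not called with the length trend removed.

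**Figure D5:**
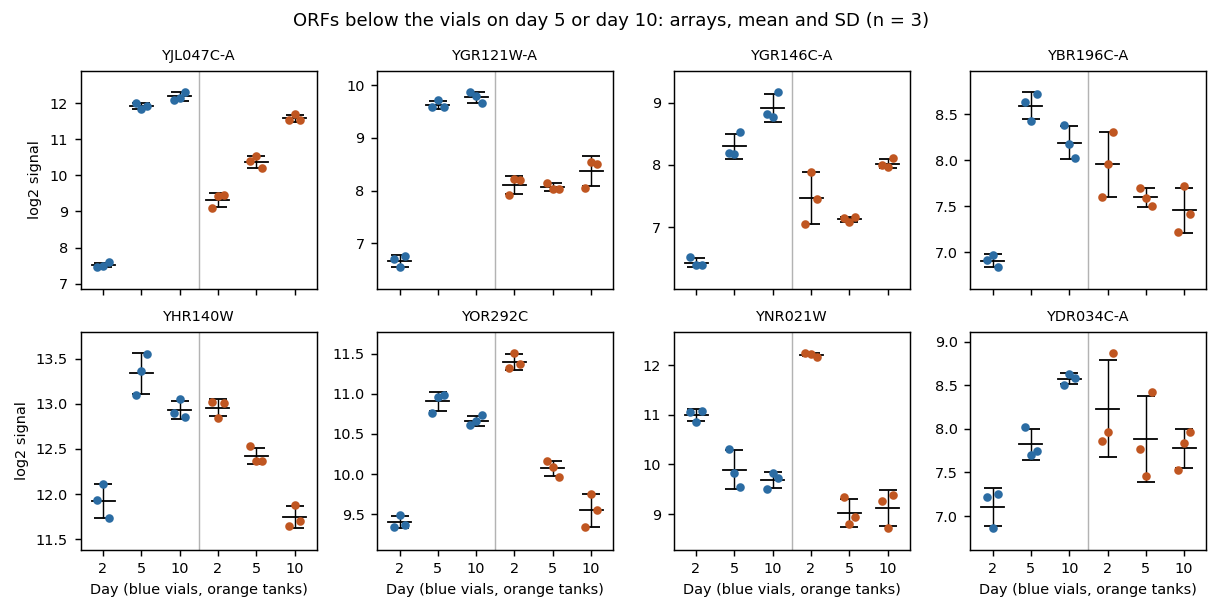
Log2 signal of 8 ORFs that were lower in tanks on day 5 or day 10, with points for arrays, a bar for the mean and whiskers for the SD (n = 3), vials in blue and tanks in orange. In YJL047C-A, YGR121W-A, YGR146C-A, YBR196C-A, YHR140W and YOR292C the day 5 vial level is well above the day 2 vial level. In YNR021W both vessel types are lower on days 5 and 10 than on day 2.

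Other short ORFs were higher in tanks throughout. YOL159C-A, of 273 nt, was at 8.57, 8.71 and 8.05 in day 5 vials and at 10.25, 9.81 and 10.18 in day 5 tanks. On day 10 it was at 8.27, 8.19 and 8.28 in vials and at 9.81, 9.88 and 10.25 in tanks. The groups were more than 1 log2 unit apart on both days, with differences of 1.64 (SE 0.16, adjusted p = 2.99e-07) and 1.73 (SE 0.16, adjusted p = 1.39e-07). YER039C-A, of 219 nt, was 1.12 and 1.05 higher on days 5 and 10, and YNR075C-A, the shortest member at 93 nt, 0.86 and 0.97 higher, all called.

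Of the 118 ORFs, 22 (18.6%) lay near a chromosome end, that is within 10 protein-coding genes of an end in the reference order, against 44 of the 381 other unnamed ORFs (11.5%) and 235 of all 5449 genes (4.31%). These shares were not tested. Of the 22, 11 were called higher on day 5 and 14 on day 10, and none lower on either day. Of the 96 members not near an end, 62 (64.6%) were higher and 13 lower on day 5. On day 10, 58 (60.4%) of these 96 were higher and 15 lower. The day 5 share called higher was thus smaller near an end than among the other members, and this was not tested. Over all genes 33.1% were called higher on day 5 and 32.3% on day 10. Of all 235 genes near an end, 41.3% were higher and 15.7% lower on day 5, and 42.1% and 16.6% on day 10. Chromosome XIV held 14 members, the most of any chromosome. They include YNR071C and the 3 neighbours YNR064C, YNR065C and YNR066C, the first of which encodes an epoxide hydrolase and was 0.72 and 0.76 higher in tanks on days 5 and 10 (adjusted p = 0.00623 and 0.00505).

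The other adjacent pair was YBL111C and YBL112C, of the helicase-like subtelomeric Y-prime repeats. YBL112C was at 8.69, 9.12 and 9.52 in day 5 vials and at 9.18, 9.73 and 9.25 in day 5 tanks, which overlapped. On day 10 YBL112C was higher by 0.68 (adjusted p = 0.00462), YBL111C by 0.59 (adjusted p = 0.00423) and YEL076C-A, also a Y-prime ORF, by 0.98 (adjusted p = 0.00178), and none of the 3 was called on day 5. YBL111C and YBL112C were called on day 5 without replicate 3 of the day 5 vials (0.40 and 0.48) and with array weights (0.32 and 0.38), and YBL112C also with the length trend removed (0.66). Their probe sets are marked as shared between sequences, so the repeat copies cannot be told apart. Including YHL042W, this class of 4 had 1 ORF called higher on day 5 and 3 on day 10, against 33.1% and 32.3% of all genes.

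Nearest neighbours mostly did not share the day 2 difference. Of the 118, 104 had a measured nearest gene, of which 27 (26.0%) reached 0.8 on day 2, against 17.9% of all genes, with a median of 0.11. Some of these nearest genes are themselves members, which the rule put at 0.8 or more. A gene nearest to several ORFs was counted for each. On day 5, 42 of the 104 (40.4%) were called higher and 30 (28.8%) lower, against 33.1% and 28.8% of all genes. These shares were not tested. Beside the leading ORFs, ECM34, next to YHL042W and of the same DUP family, was 2.34 higher on day 2, 0.77 on day 5 (adjusted p = 3.29e-05) and 0.38 on day 10 (adjusted p = 0.00961). Whether their probe sets read one another's transcript was not tested. DIP5, a dicarboxylic amino acid permease gene on the farther side of YPL264C, was lower in tanks by -2.73 on day 2, -4.41 on day 5 (adjusted p = 2.61e-07) and -3.35 on day 10 (adjusted p = 4.98e-06). SAP30, nearest to YMR262W, was at -1.93 on day 2, and INO4, nearest to YOL107W, at -1.97.

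The nearest genes of the other leading ORFs had day 2 differences of -0.20 for SMM1 beside YNR014W, 0.48 for IGD1 beside YFR018C, -0.13 for KEL3 beside YPL264C and 0.08 for PDR18 beside YNR071C. They were 0.96 for YPK9 beside YOR292C, 0.22 for RKR1 beside YMR247W-A, 0.79 for FRE3 beside YOR381W-A and 0.82 for TIF6 beside YPR015C.

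The genes with a standard symbol most like the 5 leading ORFs were found by Pearson's r over the 18 arrays, which share the 6 groups, and are given as a description. For YNR014W they were BXI1 (0.981), AQY2 (0.970) and MAL31 (0.961). PAN6 (0.983), GCD7 (0.980) and LAS21 (0.978) were most like YFR018C. For YPL264C they were MCM2 (0.982), SCW11 (0.980) and CTS1 (0.978), the latter a pair of genes of daughter cell separation. SUL2 (0.976), YSR3 (0.973) and SRO77 (0.971) were most like YNR071C, and POM33 (0.992), ECM34 (0.992) and IRC24 (0.987) most like YHL042W.

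From day 5 to day 10 in vials, 37 of the 118 ORFs were called lower and 7 higher, with a median change of -0.19. Over all genes 19.5% were called lower and 11.3% higher, with a median of -0.08. In tanks 34 were called lower and 8 higher, also with a median of -0.19, against 23.6% lower and 15.3% higher of all genes and a median of -0.05. The 34 became 22 without replicate 1 of the day 5 tanks. Of the 855 genes with a standard symbol past the same day 2 limits, 30.8% were called lower in vials and 37.9% in tanks. Of these 855, 6.20% and 5.61% were called higher, and the medians were -0.18 and -0.23. Few changes were called and at least 2-fold: 3 falls and no rise in vials, against 0.275% and 2.37% of all genes, and 1 rise and no fall in tanks, against 3.45% and 0.33%. The largest falls in vials were in YGL258W-A, which went from 8.55, 8.83 and 8.90 to 7.96, 7.53 and 7.37 (-1.14, SE 0.17, adjusted p = 0.000169), in YNR061C (-1.09), YMR247W-A (-1.04) and YDR541C (-0.96). In tanks they were in YDR541C (-0.95), YNR061C (-0.84), YDR338C (-0.83) and YNR071C (-0.75). YNR061C thus fell in both vessel types, from arrays of 10.44, 10.30 and 10.15 to 9.12, 9.13 and 9.38 in vials and from 10.73, 10.35 and 10.28 to 9.33, 9.92 and 9.59 in tanks.

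The rises from day 5 to day 10 in vials were led by YIR018C-A (0.88), YGR210C (0.86), YDR034C-A (0.75) and YJR115W (0.66), of which the call of YDR034C-A was lost under 6 alternatives. In tanks they were led by YJL047C-A (1.21), YGR146C-A (0.89), YOR387C (0.87) and YIR018C-A (0.83). YIR018C-A, of 138 nt, was at 8.38, 8.14 and 8.42 in day 5 vials and at 9.04, 9.12 and 9.41 in day 10 vials. Its tank arrays were at 8.33, 8.25 and 8.15 on day 5 and at 9.47, 9.17 and 8.60 on day 10. It rose in both vessel types, and on neither day was it called between them, except on day 10 with array weights (-0.44). YOR387C, the paralog of VEL1, was at 5.78, 5.61 and 5.30 in day 5 tanks and at 6.80, 6.38 and 6.11 in day 10 tanks, and on day 10 it was 0.82 higher in tanks than in vials (SE 0.21, adjusted p = 0.00327).

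For 5 of the 118 ORFs the change from day 5 to day 10 differed between tanks and vials in the interaction test, 2 with a more positive and 3 with a more negative change in tanks. Over all genes 2.62% had a more positive and 2.29% a more negative change, so the members' share is near that background. Without replicate 2 of the day 10 tanks 8 were called, and without replicate 2 of the day 10 vials 3. At 2-fold, 1 was more negative and none more positive, against 0.477% and 0.899% of all genes. The 5 were YJL047C-A and YMR247W-A, with a more positive change in tanks, and YNR071C, YFL041W-A and YGR210C. YFL041W-A, of 192 nt, was at 9.66, 9.79 and 9.68 in day 5 vials and at 11.08, 11.04 and 10.82 in day 5 tanks. Its difference of 1.27 on day 5 (SE 0.12, adjusted p = 2.08e-07) was 0.58 on day 10 (SE 0.12, adjusted p = 0.000555). YGR210C, a predicted GTP-binding protein, was 0.49 higher in tanks on day 5 (adjusted p = 0.000102), and on day 10 it was at 12.18, 12.14 and 12.24 in vials and at 12.10, 12.12 and 12.01 in tanks. The tank arrays were just below the vial arrays there, by -0.11, which was not called (adjusted p = 0.272) unless the length trend was removed (-0.23).

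One further ORF reached background. YJL043W was at or below it on all 3 day 10 vial arrays (3.69, 3.81 and 4.02), while the day 10 tank arrays were at 4.56, 5.02 and 4.71. Set against the background level, its signal was at least 1.29-fold higher in day 10 tanks. The limma call (adjusted p = 7.66e-05) used the measured values, those below background included, and so does not test this bound.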

How the data were processed

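Total RNA of 18 samples was hybridised to a combined S. cerevisiae and S. pombe array. The submitters' processing notes name Affymetrix Expression Console and RMA. The deposited values are linear probe set intensities, 4.79 to 39396, although the plan had taken them for log2, so log2 was taken here. Of 10928 probe sets, 5498 were listed with an S. cerevisiae gene. Another 1746 were taken as S. pombe, and their 95th percentile (intensity 21.1) set the background. Where several probe sets stood for a gene (47 genes), that of highest mean signal was used. Gene order and coding lengths came from a laboratory strain's reference.

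The 6 group means were fitted with limma 3.58.1 in R 4.3.3 to all 18 arrays, so the day 2 arrays entered the estimate of the spread. The p-values reflect the spread between the 3 arrays per group that the labels call biological replicates, and their number limits precision.

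The members and lists were chosen with earlier results of these data known. ORFs were named as the 12 largest day 2 differences, the 6 largest called differences per direction without overlap on days 5 and 10, the 4 largest called changes per direction from day 5 to day 10, 3 ORFs on each side of the limit, adjacent members, and neighbours and like genes of the leading ORFs. Role classes, paralogs and other ORFs named were chosen after values were seen. Protein identity and promoter motifs were not used here. Calculations were checked on simulated data.

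Alternatives were the most variable probe set per gene, repeated quantile normalization, median centring, a filter on dim genes, a trended robust prior, array weights, a fit restricted to the compared groups, an added 2-fold requirement, the replicate number as a block and omission of single arrays. Removing a trend on coding length (lowess span 0.3) was chosen after seeing the data.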

Additional observations from a re-analysis of the deposited data

Results flagged for a closer look

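For 5 ORFs the scale difference changed between day 5 and day 10, by the interaction test over all genes. In YJL047C-A the change in tanks minus that in vials was 0.95 (SE 0.15, adjusted p = 0.0016), and its call held under the alternatives run, apart from the 2-fold requirement. YNR071C had a value of -1.05 (SE 0.22, adjusted p = 0.0115) and YGR210C one of -0.60 (SE 0.12, adjusted p = 0.00655), and both calls held likewise, that of YNR071C at 2-fold too. For YFL041W-A it was -0.69 (SE 0.17, adjusted p = 0.0234), a call lost in 7 of the fits that left out 1 array, with values of -0.62 to -0.70 there. The value of YMR247W-A was 0.90 (SE 0.23, adjusted p = 0.0308). That call was lost under 8 alternatives, among them repeated quantile normalization (0.66) and a fit to the compared groups alone (0.90). In each of the 5 the groups hold 3 arrays, and no cause was tested.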

How the results depend on the processing

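Of 3159 values of 39 named ORFs under the alternatives, 3010 kept their direction and side of the threshold, 90 lost a call, 59 gained one and none of the called ones changed sign. The median day 2 difference was 1.32 with median centring and 1.40 with repeated quantile normalization. Requiring a 2-fold change left 20 ORFs called between scales on day 5 (17 higher, 3 lower), 19 on day 10 (16 higher, 3 lower), 3 in vials over time (0 higher, 3 lower), 1 in tanks (1 higher, 0 lower) and 1 for the interaction (0 more positive, 1 more negative). Array weights gave 68 in vials (11 higher, 57 lower), 69 in tanks (58 lower) and 30 for the interaction (13 more positive, 17 more negative). A fit to the compared groups alone gave 26 in tanks (20 lower) and 1 more positive interaction. Quantile normalization and removal of the length trend each gave 1 more positive interaction, and the latter 24 lower in vials. The cause of these shifts was not tested, apart from the 2-fold rule, which can only remove calls. Shares of all genes under the other alternatives, here and below, are not given, so these counts are not read as particular to the members.

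Leaving out 1 array at a time gave 73 to 85 calls on day 5 (59 to 74 higher, 10 to 14 lower) and 75 to 91 on day 10 (61 to 77 higher, 14 to 16 lower). Over time it gave 31 to 41 in vials (5 to 6 higher, 25 to 35 lower) and 29 to 57 in tanks (6 to 8 higher, 22 to 49 lower). For the interaction it gave 3 to 8 (1 to 4 more positive, 2 to 6 more negative). The rule itself chose 114 to 126 ORFs, with a median day 2 difference of 1.22 to 1.28 over the 118.

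The replicate numbers are shared between groups, but same-numbered arrays did not regularly deviate together: 15 of 45 pairs correlated over 0.1, within -0.47 to 0.76. Both extremes were between day 5 and day 10 tanks, 0.76 for replicate 3 and -0.47 for replicate 1. With the replicate block, 83 ORFs were called on day 5 (70 higher, 13 lower), 86 on day 10 (71 higher, 15 lower), 40 in vials (7 higher, 33 lower), 42 in tanks (9 higher, 33 lower) and 7 for the interaction (3 more positive, 4 more negative). Signals near background, as in YOR381W-A and YJL043W, limit what small differences can show.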
